A study of Gallus gallus with 8 samples.

Results

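Liver messenger RNA of male chickens with ascites was compared with that of females with ascites, in 4 of the 8 pools of the series: 2 pools of ascitic males and 2 pools of ascitic females, chosen by their labels. It was known beforehand that these pools had close replicates and sex-limited transcripts that match their labels. It was also known that the healthy pools of each sex lay far apart, and the main fit used the spread of the ascitic pools alone. Its p-values and number of calls depend on that choice. Each pool held the liver RNA of 4 meat-type birds, and the 8 pools together came from 32 livers. All birds, healthy ones included, were kept at 24 °C on day 21 and then chilled, at 18 °C, between day 22 and day 48, when the trial closed, and all received an energy-rich feed meant to bring out pulmonary hypertension. The meaning of the label day 42 is unclear, so no age at sampling is stated. The birds of the 4 ascitic pools had water belly and differed by sex. The remaining 4 pools, 2 of healthy males and 2 of healthy females, did not enter the comparison and are shown beside it. The replicate is the pool, so variation among the birds that make up a pool is hidden and p-values measure only the spread between pools.

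Ascites of meat-type chickens is an abdominal collection of fluid that follows pulmonary hypertension and failure of the right side of the heart, and the liver lies upstream of the failing heart and becomes congested. In birds the female is the sex with unlike sex chromosomes, Z and W, and the male carries a pair of Z chromosomes, so transcripts of genes found only on W are absent from males. Birds equalize the dose of Z genes between the sexes only in part. The liver is also a target of sex hormones, and in the laying hen it makes the yolk precursors under oestrogen. Genes carry Ensembl IDs without names or chromosomes in the files, and none of these IDs could be matched to the reference table. Genes are therefore described by their values, only 4 are given by ID, and markers of liver cells could not be looked up.

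The 4 ascitic pools held between 26535683 reads (ascitic female 2) and 33193179 reads (ascitic female 1). Values below are normalized reads, which are reads divided by the size factor of each pool, and are not corrected for gene length. The 2 female pools were closer to each other than the 2 male pools. The median gap between pools, over 13404 genes, was 0.29 log2 units between the male pools and 0.18 between the female pools, and 453 genes differed by more than 1 log2 unit between the male pools, against 163 between the female pools. Between a male and a female pool the median gap was 0.28 to 0.32, so for the typical gene the sexes differed about as much as the 2 male pools. Ascitic male 1 had 34.6% of its reads in its 10 most abundant genes, against 28.3% in ascitic male 2 and 27.9% and 28% in the ascitic female pools. For the mean of that share the exact two-sided permutation test gave p = 0.333, the smallest that 2 against 2 pools can give, and none of 7 measures of whole pools could pass. Ascitic male 1 also had the highest share of reads in its 50 most abundant genes, 55.0%, against 46.1% in ascitic male 2 and 48.4% and 48.6% in the females. The calls without this pool are given with the test over all genes below. Among the healthy pools, healthy male 1 held transcripts that go against its label, as described below. Healthy female 2 stood apart from all others, with 1522 genes more than 1 log2 unit above every other pool, against at most 30 in any of them.

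A small group of genes separated the sexes of the ascitic birds almost completely. By the rule of at least 50 normalized reads in both pools of one sex and at most 5 in both pools of the other, 14 genes were female-limited and 0 were male-limited. The rule uses the values of the comparison, and sex-limited transcripts were already known in these pools, so these are a description. Over the 14 genes the 2 male pools together held 13 reads, and 9 of the 14 genes had no read in either male pool. Summed over the 14 genes, the ascitic male pools held 6.43 and 3.85 normalized reads, against 6685 and 9274 for the ascitic females. Each of the 14 genes was higher in ascitic female 2 than in ascitic female 1. The gap was wide for some, such as 671 against 236 and 197 against 60.2 normalized reads.

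**Figure D1:**
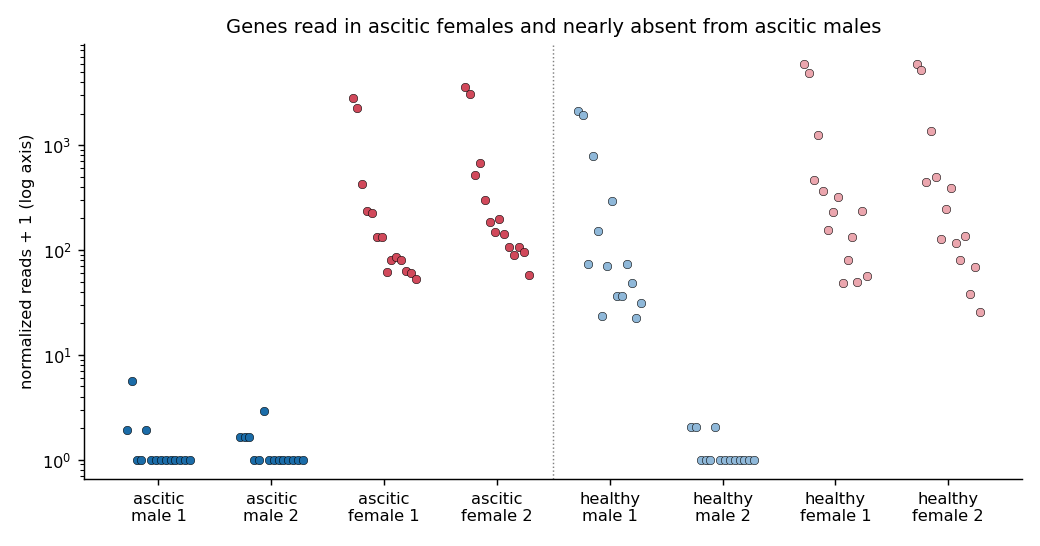
Normalized reads plus 1 (log axis) of the 14 female-limited genes in each of the 8 pools, 1 point per gene, ordered within each pool by mean level in ascitic females. The ascitic male pools and healthy male 2 lie at or near 1 (no reads), while healthy male 1 holds reads of all 14 genes.

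ENSGALG00000037690 had the largest difference of all genes that passed. It had 0.918 and 0.642 normalized reads in the ascitic male pools, against 2790 and 3553 in the ascitic female pools. These values rest on 2 reads in the male pools and 8174 in the female pools, and the female to male ratio was 4136, with an exact 95% binomial interval of 1145 to 34159 that covers counting error only. The log2 difference on the deposited scale, male minus female, was -7.23 (standard error 0.21, limma, adjusted p = 1.58e-06). ENSGALG00000035489 followed, at 4.59 and 0.642 normalized reads in the ascitic male pools, against 2271 and 3106 in the ascitic female pools. Its log2 difference was -6.78 (standard error 0.25, limma, adjusted p = 5.45e-06). Both male pools thus sat at a handful of reads for these genes and both female pools far above that. The other 12 genes were scarcer, with ascitic female means of 54.2 to 472 normalized reads. For the 9 genes without a male read, the female mean was at least 47.8-fold to at least 400-fold higher than a floor of 3 reads over both male pools. All 14 passed the test across all genes (limma, largest adjusted p = 0.0129), as their choice made likely.

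In the healthy pools, which did not choose these genes, healthy male 2 held 3 reads of the 14 genes and both healthy female pools held every one of them. The sums were 5698 normalized reads in healthy male 1 and 3.17 in healthy male 2, against 14183 in healthy female 1 and 14677 in healthy female 2. All 14 genes exceeded 5 normalized reads in the pool labelled healthy male 1, at 14.1% to 110% of their mean in healthy females, with a median of 41.0%. Results that rest on the healthy male pools are therefore given with and without that pool. The ascitic female pools held less than the healthy female pools in these sums of normalized reads. By gene, the ascitic female mean was below the healthy female mean for 8 of the 14. It ran from 34.8% to 195% of the healthy mean, with a median of 61.9%. By share of all reads the order of the sums was not kept, with 0.0294% and 0.0403% in ascitic females and 0.0459% and 0.0265% in healthy females.

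The test over all genes asked which liver transcripts differed between ascitic males and ascitic females. A limma fit to the 4 ascitic pools called 178 of 13404 genes (1.33%) at an adjusted p of 0.05. In males 72 genes (0.537%) were higher and 106 (0.791%) lower. The median log2 difference was 1.40 among the higher genes (range 0.90 to 2.43) and -1.54 among the lower ones (range -7.23 to -0.95). With the 19 lower genes that had no male read set to the floor of 3 reads over both male pools, the second median was -1.58. On the deposited log2 scale, estimates exceeded 1 log2 unit for 67 of the higher and 100 of the lower genes, and 2 log2 units for 7 and 34. That scale shrinks differences of scarce genes, so ratios of normalized reads can be larger. The male and female pools did not overlap for any of the 178 genes, as 47.1% of all tested genes did not (24.6% with both male pools above and 22.4% with both below). Scaled by total reads in place of the size factors, 27 genes were higher and 92 lower. Most other settings with all 4 pools also had more lower than higher genes, but not all. Limma-voom with sample weights had 148 higher and 133 lower. With the replicate number as a block, 213 were higher and 202 lower. Most fits with 1 pool left out had more higher than lower genes.

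The number of genes depended on which pools set the spread. It was 950 without ascitic male 1, 835 without ascitic male 2, 83 without ascitic female 1 and 148 without ascitic female 2. With a female pool left out, a gene read only in females cannot reach the required reads in 2 pools and is not tested. Of the 178 genes, 20 higher and 20 lower ones passed in each of these 4 fits. When all 8 pools shared 1 estimate of spread, 0 genes passed (691 at an unadjusted p under 0.05 in limma, against 2051, or 15.3%, with the ascitic pools alone), and with healthy male 1 and healthy female 2 left out of that fit 158 passed. The 691 genes of the fit over all 8 pools were out of 13766 tested, and the 2051 out of 13404. The first is about the share that a threshold of 0.05 gives when no gene differs. All 178 genes kept their direction in each of 17 alternatives that tested them.

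**Figure D2:**
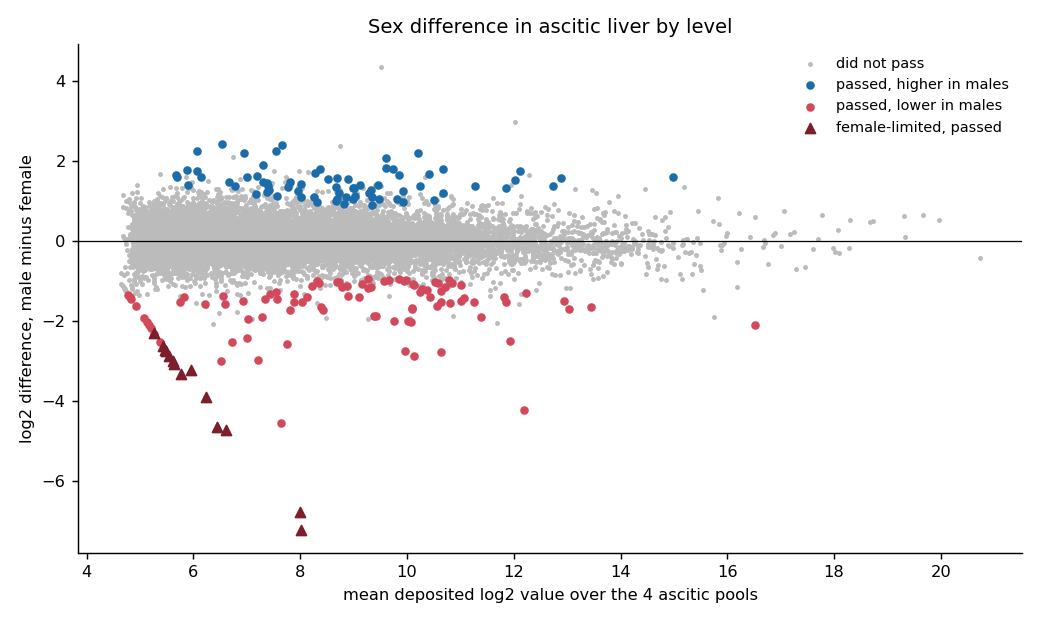
Log2 difference of ascitic males minus ascitic females against the mean deposited log2 value over the 4 ascitic pools, 1 point per gene for 13404 genes. The 14 female-limited genes (triangles) run down to -7.23, whereas the 72 genes higher in males end at 2.43.

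Differences beyond 2 log2 units were mostly on the female side, and smaller ones were about balanced. Over all tested genes, 3417 (25.5%) were more than 0.25 log2 units higher in males and 2986 (22.3%) as much lower. Beyond 0.5 log2 units the numbers were 1460 (10.9%) higher and 1166 (8.7%) lower in males, and beyond 1 they were 233 (1.74%) and 207 (1.54%). Beyond 2 log2 units only 11 genes (0.0821%) were higher in males, against 36 (0.269%) lower, and beyond 4 the numbers were 1 (0.00746%) and 6 (0.0448%). The 36 include all 14 female-limited genes and some of the other genes without a read in ascitic males, and most of the 6 are female-limited. Scaled by total reads, 254 genes were more than 1 log2 unit higher and 244 lower. No test was made of this asymmetry.

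The single largest excess in males did not pass. It was 1166 and 8895 normalized reads in the ascitic male pools, against 68.4 and 227 in the ascitic female pools, a log2 difference of 4.34 (standard error 1.18, limma, adjusted p = 0.241). Its male pools lay far apart from each other, although both were above both female pools. Altogether 4 genes with more than 2 log2 units in favour of males and 2 in favour of females did not pass.

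The genes that passed were spread over all levels of abundance. Among the 100 genes with most reads in ascitic liver, 1 was higher and 1 lower in males (1% each), and among the next 900 the numbers were 6 and 13 (0.667% and 1.44%). Among the 4000 after those, 35 were higher and 45 lower (0.875% and 1.12%), and among the 8404 scarcer genes 30 and 47 (0.357% and 0.559%). The median log2 difference of the top 100 was -0.06 and that of the scarcest 8404 was 0.03. In bulk liver, fewer cells of a type and less RNA per cell cannot be told apart.

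Among the 72 genes higher in ascitic males, the largest difference was that of ENSGALG00000006025. It had 165 and 198 normalized reads in the ascitic male pools, against 22.6 and 6.07 in the ascitic female pools. The mean was 182 ± 23.4 in ascitic males and 14.3 ± 11.7 in ascitic females (SD, n = 2 each). The log2 difference was 2.43 and its standard error was 0.30 (limma, adjusted p = 0.0102). In healthy birds of both sexes it was nearly silent, with 0 and 2.11 normalized reads in the male pools and 1.17 and 0 in the female pools. ENSGALG00000024272 came next, at 422 and 435 normalized reads in the ascitic male pools, against 35.6 and 86.7 in the ascitic female pools. Its log2 difference was 2.39 (standard error 0.29, limma, adjusted p = 0.010). Its healthy pools held 49.5 and 27.5 normalized reads in males, against 7.0 and 337 in females, so the high healthy value came from healthy female 2. On log2 of normalized reads plus 1, a scale that compresses low values less, these differences were 3.82 and 2.92.

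**Figure D3:**
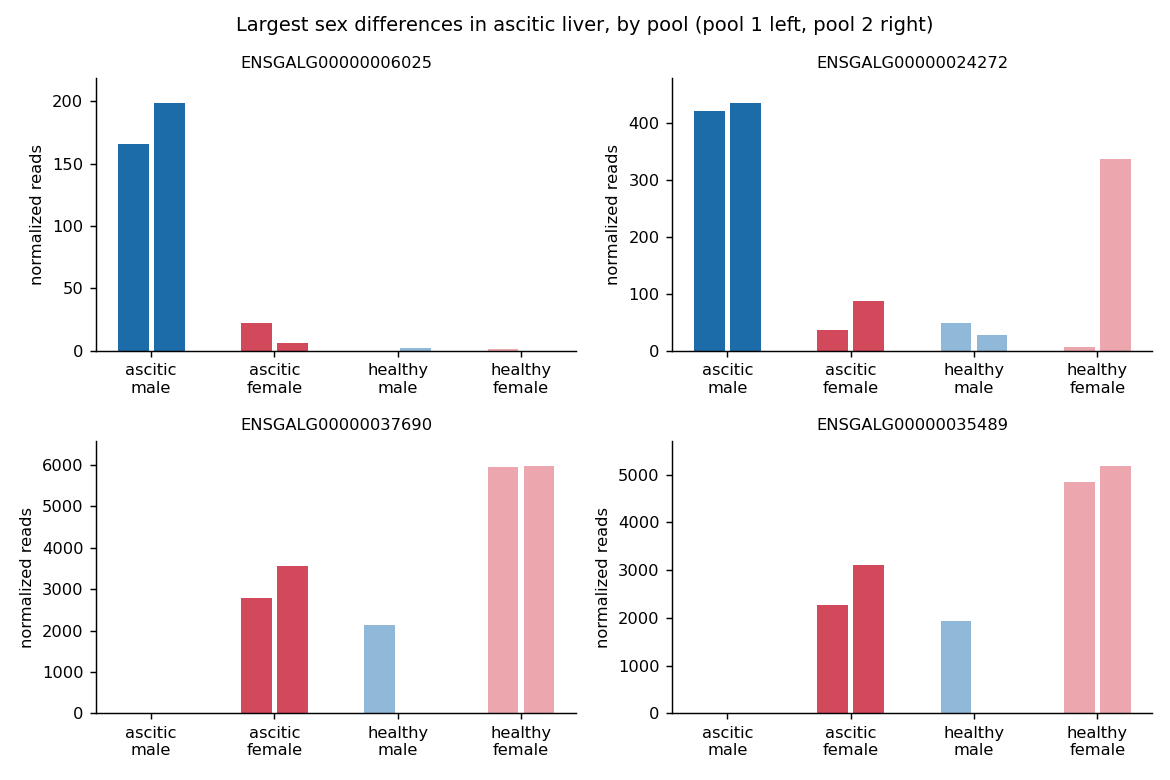
Normalized reads of the 2 genes with the largest differences in each direction, 1 bar per pool (pool 1 left, pool 2 right). ENSGALG00000006025 reaches 165 and 198 in ascitic males and at most 22.6 elsewhere, and ENSGALG00000037690 lies near 0 in ascitic males and in healthy male 2.

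The genes ranked 3 and 4 by size of difference were scarce in every healthy pool, like ENSGALG00000006025 and unlike ENSGALG00000024272. Here and below, genes without an ID were chosen after their values were seen. The first of these had 297 and 465 normalized reads in the ascitic male pools, against 53.4 and 56.4 in the ascitic female pools, and at most 7.40 in any healthy pool. The other had 88.2 and 144 in the ascitic male pools, against 3.42 and 9.54 in the ascitic female pools, and at most 4.31 in any healthy pool. Of the 72 genes, 7 (9.72%) had no more than 10 normalized reads in any healthy pool, against 3.56% of all tested genes. By another limit, a healthy mean under 10 normalized reads, the numbers were 7 of 72 and 1067 of all 13404 tested genes, which lie closer together.

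The gene with most reads among the 72 was an abundant liver transcript. It had 60944 and 51904 normalized reads in the ascitic male pools, against 17053 and 20563 in the ascitic female pools, a log2 difference of 1.58 (standard error 0.29, limma, adjusted p = 0.0450). In the healthy pools it ran from 13096 to 21228, so the ascitic females lay within the healthy range and the ascitic males above it. The second by reads had 17246 and 9920 normalized reads in the ascitic male pools, against 4356 and 4345 in the ascitic female pools. Together the 72 genes took 0.571% and 0.757% of the reads of the ascitic male pools, against 0.219% and 0.246% in the ascitic females and 0.0891% to 0.135% in the healthy pools. The gene with most reads was a large part of this, with its 60944 and 51904 normalized reads within sums of 160621 and 147782 in ascitic males. In such sums the ascitic females held 49841 and 56521. The healthy pools ran from 27495 (healthy female 1) to 72732 (healthy female 2). By normalized reads, healthy female 2 was thus above both ascitic female pools, unlike by share of reads.

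Relative to healthy birds, the genes higher in ascitic males had medians in the order ascitic male, ascitic female, healthy. Set against the ascitic female mean of each gene, the median over the 72 genes was 1.32 and 1.44 log2 units in the ascitic male pools, -0.76 and -0.68 in the healthy male pools, and -0.84 and -0.39 in the healthy female pools. For 29 of the 72 (40.3%) all 4 healthy pools were below all 4 ascitic pools, as for 11% of all tested genes. The ascitic pools that chose the 72 genes also enter this order, so the 2 shares are given as a description. Since the male pools are the higher ones in all 72, the same 29 have both ascitic female pools above all healthy pools, as 17.8% of all tested genes do.

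**Figure D4:**
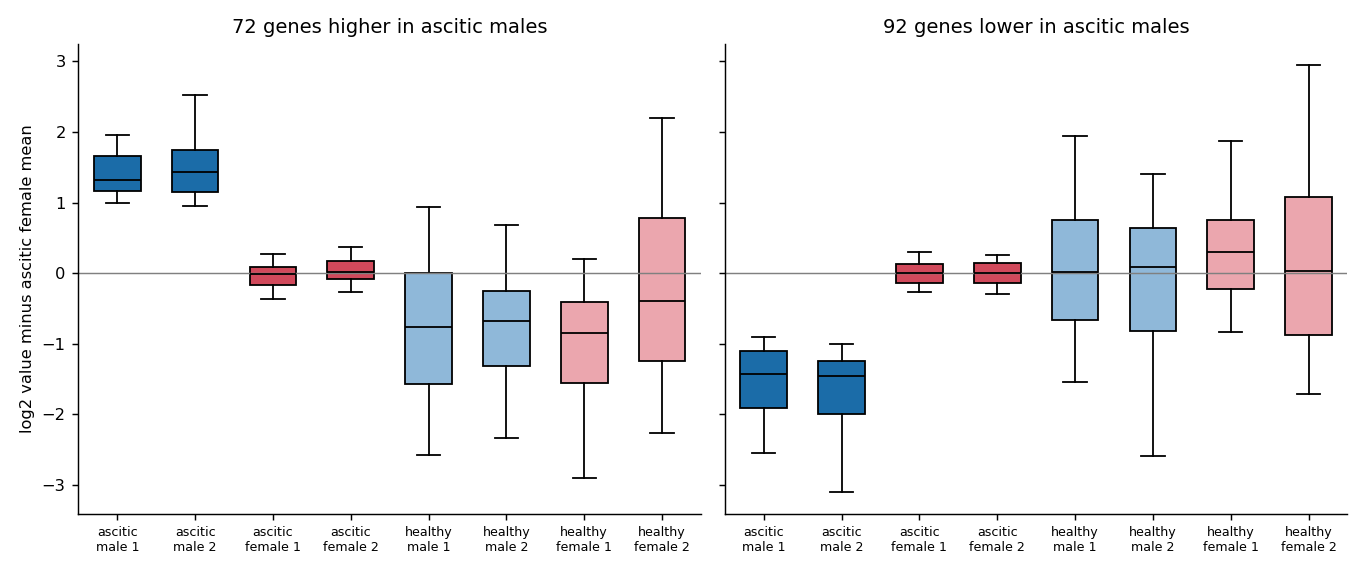
Deposited log2 value minus the ascitic female mean of the gene, by pool, for the 72 genes higher in ascitic males (left) and the 92 genes that were lower and not female-limited (right). Boxes span the quartiles with the median as a line, and whiskers run from the 5th to the 95th percentile of genes. The healthy medians lie below 0 on the left, from -0.84 to -0.39, and between 0.02 and 0.30 on the right.

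Of the 106 genes lower in ascitic males, 24 had at most 5 normalized reads in both male pools. They were the 14 female-limited genes and 10 that did not reach 50 normalized reads in both female pools, whose ascitic female means were 16.3 to 72.2 normalized reads. The remaining 82 were read in at least 1 male pool above that level. Among the lower genes that were not female-limited, the one with the largest difference had a small male signal. It had 14.7 and 13.5 normalized reads in the ascitic male pools, against 777 and 1135 in the ascitic female pools (log2 difference -4.56, standard error 0.24, limma adjusted p = 7.48e-05). The same gene had 535 and 13.7 normalized reads in the healthy male pools, against 1345 and 1399.8 in the healthy female pools, so healthy male 2 matched the ascitic males and healthy male 1 did not. Another had 479 and 300.5 in the ascitic male pools, against 2621 and 3522 in the ascitic female pools. Its healthy male pools had 2143 and 396, against 3732 and 4421 in the healthy female pools.

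Abundant transcripts were also among the genes lower in ascitic males. The gene with most reads among the 106 had 55228 and 36472 normalized reads in the ascitic male pools, against 225755 and 167927 in the ascitic female pools, a log2 difference of -2.12 (standard error 0.38, limma, adjusted p = 0.0402). Its healthy pools did not show that direction, at 315939 and 272253 in males, against 218075 and 90737 in females. Another had 2135 and 500.2 normalized reads in the ascitic male pools, against 22357 and 18110 in the ascitic female pools (log2 difference -4.23, standard error 0.61, limma adjusted p = 0.0394). Its healthy pools had 19286 and 8143 in males, against 24833 and 35299.9 in females. Yet another was lower in males in both disease states, at 1825 and 1411 in the ascitic male pools, against 11717 and 7228 in the ascitic female pools. Its healthy male pools had 82441 and 23957, against 135526 and 158299 in the healthy female pools. Together the 106 genes took 0.436% and 0.456% of the reads of the ascitic male pools, against 1.92% and 1.59% in the ascitic females and 1.09% to 2.27% in the healthy pools. Much of this was the gene with most reads. Its 225755 and 167927 normalized reads in ascitic females were part of sums of 436694 and 367023. In ascitic males its 55228 and 36472 were part of 122566 and 89101. The healthy sums of normalized reads ran from 567279 (healthy male 2) to 699827 (healthy female 1). By that measure every healthy pool was above both ascitic female pools, unlike by share of reads.

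For the 92 lower genes that were not female-limited, the medians of the healthy pools lay near those of the ascitic females, with single genes to either side. Set against the ascitic female mean of each gene, the median was -1.43 and -1.45 log2 units in the ascitic male pools, 0.02 and 0.08 in the healthy male pools, and 0.30 and 0.03 in the healthy female pools. All 4 healthy pools lay above all 4 ascitic pools for 20 of the 92 genes (21.7%), as for 10.3% of all tested genes. The same 20 genes have both ascitic female pools below all 4 healthy pools, as 16% of all tested genes do, and for 14 of the 92 both ascitic female pools lay above all 4 healthy pools, as for 17.8% of all tested genes. In healthy female 2 the middle 50% of the 92 genes ran from -0.88 to 1.08 log2 units. These genes were chosen on the ascitic pools, so this too is a description.

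The healthy pools, which share no pool with the ascitic comparison, were then used to look at the same genes. The sex difference in healthy liver passed 0 of 12382 genes in limma (401, or 3.24%, at an unadjusted p under 0.05) and 0 in limma-voom with or without sample weights. Without healthy male 1 it passed 12 of 11990 genes (0.1%), all lower in males (1.88% at an unadjusted p under 0.05), of which 9 were female-limited and 10 were among the 178. Without healthy female 2 it passed 11, and without healthy female 1, which leaves healthy female 2 alone in its group, 1896. These numbers do not show that the sexes differed less in healthy birds. In the fit without healthy male 1, a gene read only in males cannot reach the required reads in 2 pools. Such a gene is not tested and cannot be called higher.

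Of the 72 genes higher in ascitic males, 33 were higher and 39 lower in healthy males by the mean of both pools, and with healthy male 2 alone the numbers were 34 and 38 (50.2% higher over all tested genes). Their median healthy difference, male minus female, was -0.07 log2 units, and -0.04 with healthy male 2 alone. Over all tested genes 47.7% were higher in healthy males by the mean. Both healthy male pools were above both healthy female pools for 20 of the 72 (27.8%), against 16.2% of all tested genes. Healthy male 2 was above both healthy female pools, and more than 1 log2 unit above their mean, for 3 of the 72 (4.17%), against 3.98% of all tested genes. It was as far below them, opposite to the ascitic direction, for 13 of the 72 (18.1%), against 8.85% of all tested genes. The mean of the healthy females includes healthy female 2, which stood apart from the other pools. In some of the 13 the margin came mainly from that pool. There, 1 gene had 1633 normalized reads in healthy male 2, against 1805 in healthy female 1 and 8924 in healthy female 2. In others both female pools were far above, as with 5.29, against 40.8 and 76.5. Of the 3 genes as far above, 1 had 2213 and 2689.9 normalized reads in the ascitic male pools, against 1153 and 961 in the ascitic female pools. Its healthy male pools had 1747 and 1755, against 176 and 239.9 in the healthy female pools. Both comparisons put the males of this gene above the females without overlap.

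Of the 92 genes lower in ascitic males and not female-limited, 60 were lower and 32 higher in healthy males by the mean of both pools, and with healthy male 2 alone the numbers were 55 and 37 (49.8% lower over all tested genes). Their median healthy difference was -0.29 log2 units, and -0.22 with healthy male 2 alone. Over all tested genes 52.3% were lower in healthy males by the mean. The 92 include the 10 genes nearly absent from both ascitic male pools, all of them lower in healthy males by the mean. Most of the 10 had no read in healthy male 2 and are counted among the 31 genes that follow. Those 31 also include genes in which healthy male 2 lay near the ascitic males and healthy male 1 lay between the sexes. One, described above, had 13.7 normalized reads in healthy male 2 and 535 in healthy male 1, against 1345 and 1399.8 in healthy females. As above, the mean of the healthy female pools includes healthy female 2. Healthy male 2 was below both healthy female pools, and more than 1 log2 unit below their mean, for 31 of the 92 (33.7%), against 8.85% of all tested genes. It was below both by any margin for 46.7% of them, against 30.4%, and both healthy male pools were below both healthy female pools for 27 (29.3%), against 15.4%. Healthy male 2 was as far above the healthy females, opposite to the ascitic direction, for 8 of the 92 (8.7%), against 3.98% of all tested genes. One of these had 44.1 and 10.9 normalized reads in the ascitic male pools, against 411 and 356 in the ascitic female pools, whereas its healthy pools had 160.5 and 800.3 in males, against 405 and 26.9 in females.

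**Figure D5:**
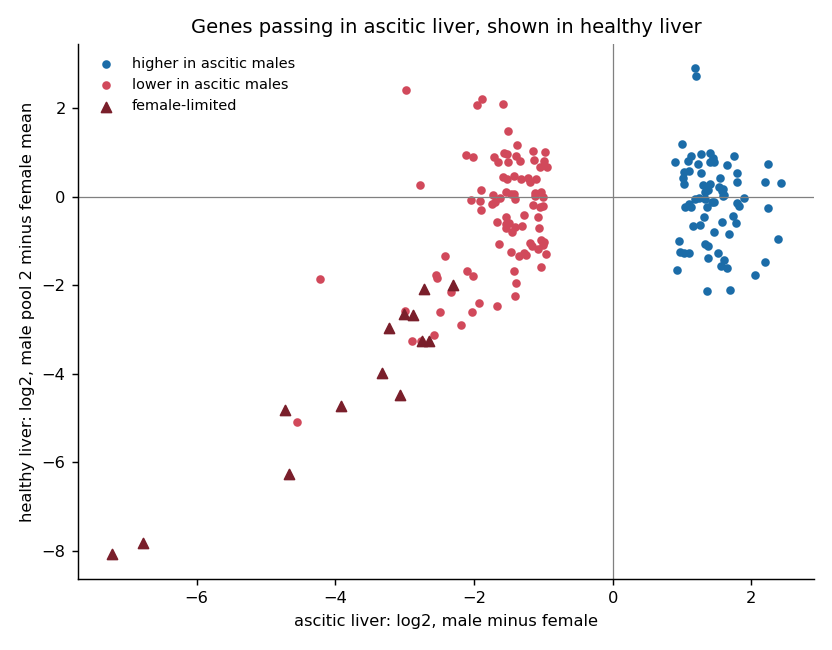
Log2 difference in healthy liver (healthy male 2 minus the mean of the healthy female pools) against that in ascitic liver (male minus female) for the 178 genes that passed in ascitic liver. The 14 female-limited genes (triangles) are negative on both axes, and the 72 genes on the right divide into 34 above and 38 below 0 in healthy liver.

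Across the 13390 tested genes that were not female-limited, the ascitic and healthy sex differences had a Pearson correlation of 0.01 and the same sign for 50.5% of genes, and with healthy male 2 alone -0.01 and 48.1%. These are descriptions across genes, which are not independent replicates. Over the 164 genes that passed and were not female-limited, the sign was the same for 56.7%, and for 54.3% with healthy male 2 alone. These 164 include the 10 nearly absent from ascitic males, all of the same sign in both measures. Whether the sex difference itself differed between ascitic and healthy birds was tested gene by gene over all 8 pools. The interaction passed 0 of 13766 genes in limma (835, or 6.07%, below 0.05 before adjustment, with 0.249 the smallest adjusted p) and 0 in limma-voom. It also passed 0 of 13603 without healthy male 1 (645, or 4.74%, at an unadjusted p under 0.05) and 2218 without healthy female 1, where healthy female 2 stands alone in its group. For ENSGALG00000006025 the interaction was 2.36 log2 units (limma, adjusted p = 0.601), so its larger sex difference in ascitic birds did not pass.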

How the data were processed

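Poly(A) RNA of 8 liver pools was sequenced, and only RNA with an integrity number above 7.5 was used, per the labels' protocols. The submitters' processing notes list, without roles, HTSeq 0.6.1, TopHat2 2.0.9, Bowtie2 2.0.6, DESeq2 1.22.1, R 3.5.1 and also Cufflinks, Cuffdiff, Trimmomatic and FastQC. The sources used here name neither genome build nor annotation. The table deposited by the authors holds log2 values of 14634 genes. They have the form of a variance-stabilized scale: inverted, 100% of values are whole reads within 0.01 of a read (largest deviation 0.00512), and the lowest value, 4.11, is a count of 0.

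Deposited log2 values of the 4 ascitic pools were fitted by sex in limma 3.58.1 (R 4.3.3, statmod 1.5.0) with trended, robust variances and Benjamini-Hochberg adjustment over all genes tested. Genes needed 10 reads per library of median size in 2 pools and 15 reads in all. For scarce genes the scale shrinks differences. The fits were also run on simulated counts in which genes of similar level shared the same spread. Those runs, whose outcome is not given here, do not show how often calls in the real pools are wrong. Named genes are the 2 largest differences in each direction among genes that passed with at least 1 CPM and pools that did not overlap; gene lists could not be used, since 0 IDs matched the 25635 reference genes (GRCg7b). The comparison, rules and thresholds were chosen with earlier results of these data known. Other size factors, filters, scales, limma-voom, a replicate block and each pool left out were tried. Floors and intervals cover counting error only.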

Additional observations from a re-analysis of the deposited data

Results flagged for a closer look

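The pool labelled healthy male 1 was flagged because, outside the ascitic comparison, it held a signal far above the other male pools. Its 14 female-limited genes summed to 5698 normalized reads, against 6.43 and 3.85 in the ascitic male pools and 3.17 in healthy male 2. What gave this signal was not tested. With 2 pools a group, no search was made for a pool far from the others of its own group.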

How the results depend on the processing

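The number of genes in the ascitic sex difference, 178, stayed within a factor of 1.5 in 9 of 17 alternatives. This compares numbers, not the genes themselves. Scaled by total reads, 119 genes passed and 93 of them were among the 178. In all 17 alternatives together 0 of the 178 passed, as the fit with 1 spread shared by all 8 pools passed 0. The number became 104 with a filter of 5 CPM in 2 pools, where fewer genes were tested, and 281 with limma-voom and sample weights. It became 27 against a fold of 1.5, which asks for a larger change. With 1 pool left out the number ran from 83 to 950, the lone pool being assumed to vary like the others. The sex difference in healthy liver ran from 0 to 1896 and the interaction from 0 to 2218 with 1 pool left out, both highest without healthy female 1. With the replicate block, 415 genes passed in ascitic and 6 in healthy liver. The labels do not say that a number marks a shared batch, and deviations of same-numbered ascitic pools correlated at -0.10 over genes, so the pools were not paired. The 14 female-limited genes became 8 with limits of 100 and 10 normalized reads. The 4 genes given by ID kept their direction in every alternative that tested them and lost their call only with 1 spread shared by all 8 pools (limma, adjusted p from 0.327 to 0.908). Except as stated, the cause was not tested. Depth limits the female-limited genes, whose male values rest on 13 reads in all.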
